A study of Mus musculus with 9 samples.

Results

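MCTP-treated NPK cells were compared with control NPK cells by RNA sequencing of poly-A selected RNA. The libraries were chosen by their sample titles: 3 MCTP and 3 control libraries of the 9 in the series, and 12216 of 12842 genes in the table passed the floor on low values and were tested. NPK cells are mouse cells isolated from lung metastases of prostate cancer in mice whose engineered alleles include Nkx3.1CreERT2/+ and R26R-YFP. The inducible Cre is driven from the Nkx3.1 promoter, a prostate epithelial promoter, and every group used here shares the same genotype, with the YFP reporter. All libraries therefore come from one tumour model grown in culture. Whether host cells remained was not tested, and markers of other cell types are given below. The control group is titled NPK, with no treatment named. The titles of the treated group name MCTP39, MCTP40 and MCTP41, 1 library each, followed by replicate numbers 1, 2 and 3, while the study describes MCTP-39 alone, as an inhibitor used against the lysine methyltransferase NSD2. Whether the titles name 1 compound or several is not known here, and a difference between compounds could not be told apart from a difference between single libraries. The study gives doses, a duration and a DMSO vehicle for MCTP-39 in a human prostate cancer line, but those used for these NPK libraries were not found. Nothing says whether the 3 libraries of a group are separate cultures. A further group of 3 libraries, NPK cells with shRNA against Nsd2 (shNsd2), serves below for comparison with the MCTP libraries.

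NSD2 adds methyl groups to histone H3 at the lysine written H3K36, as do its relatives NSD1 and NSD3. Cells that sense a shortage of amino acids or misfolded protein phosphorylate the translation factor eIF2alpha, which favours translation of the transcription factor Atf4 and, through it, transcription of genes for amino acid synthesis, amino acid import and tRNA charging. Other transcription factors with well-known target sets are p53, which responds to DNA damage and other stresses, Nrf2, which responds to oxidants and electrophiles, and the SREBP proteins, which drive sterol synthesis.

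In short, most tested genes of the Atf4 and amino acid programme, the cytosolic tRNA synthetases, and cholesterol and fatty acid synthesis were lower in MCTP-treated cells. Most p53 targets, Nrf2 targets and xenobiotic enzymes were higher. Among single genes, the carboxylesterase Ces2e rose by 3.05 and smooth muscle actin Acta2 by 3.02 on the log2 scale, and the alanine-forming enzyme Gpt2 fell by 1.50. Over all genes tested, 35.2% passed an adjusted p of 0.05 from limma, 18.0% higher and 17.2% lower with MCTP; every count on a list below stands beside these shares. The median log2 difference (MCTP minus control, means of 3 libraries each) was -0.0062 over all genes tested. Groups that did not overlap were found for 50.6% of genes. A change larger than 1 on the log2 scale was called for 70 genes, 50 higher and 20 lower.

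The libraries do not stand at equal distances. The median absolute difference between libraries over genes, on the log2 scale, was 0.0649 for MCTP 1 and 3, but 0.116 for MCTP 1 and 2 and 0.158 for MCTP 2 and 3, and it was 0.0387 for control 2 and 3 but 0.0729 and 0.0774 for control 1 with control 2 and 3. MCTP library 2 was 0.114 to 0.121 from the controls, nearer than MCTP 1 (0.148 to 0.191) and MCTP 3 (0.190 to 0.238). A base-composition trend goes with this: across 11940 genes, the Spearman correlation of a library's value, relative to the other libraries, with transcript GC content (genes are not independent replicates) was -0.601, -0.352 and -0.221 in control 1, 2 and 3, -0.375 in MCTP 2, and 0.545 and 0.622 in MCTP 1 and 3. So MCTP 2 sits with the controls in base composition and MCTP 1 and 3 sit apart, and for genes whose change tracks GC content the part of the libraries was not tested. The correlation with transcript length was 0.317, 0.187 and 0.246 in control 1, 2 and 3. It was 0.166 in MCTP 2, and -0.271 and -0.379 in MCTP 1 and 3. The part of transcript length was not tested either. Of the 4305 genes called, 4280 (99.4%) were called in the same direction without MCTP 2, where many more passed: 29.8% of genes higher and 30.6% lower. With each library's GC trend removed, 23.3% were called higher and 22.5% lower. Without control 1, 2 or 3 the calls numbered 2366, 2162 and 2456, and without MCTP 1, 2 or 3 they numbered 2046, 7384 and 2842. All 70 genes past 1 and 553 of the 673 past 0.5 were called in each of these 6 fits. Single genes given below as risen or fallen were called in all 6 unless a library is named.

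**Figure D1:**
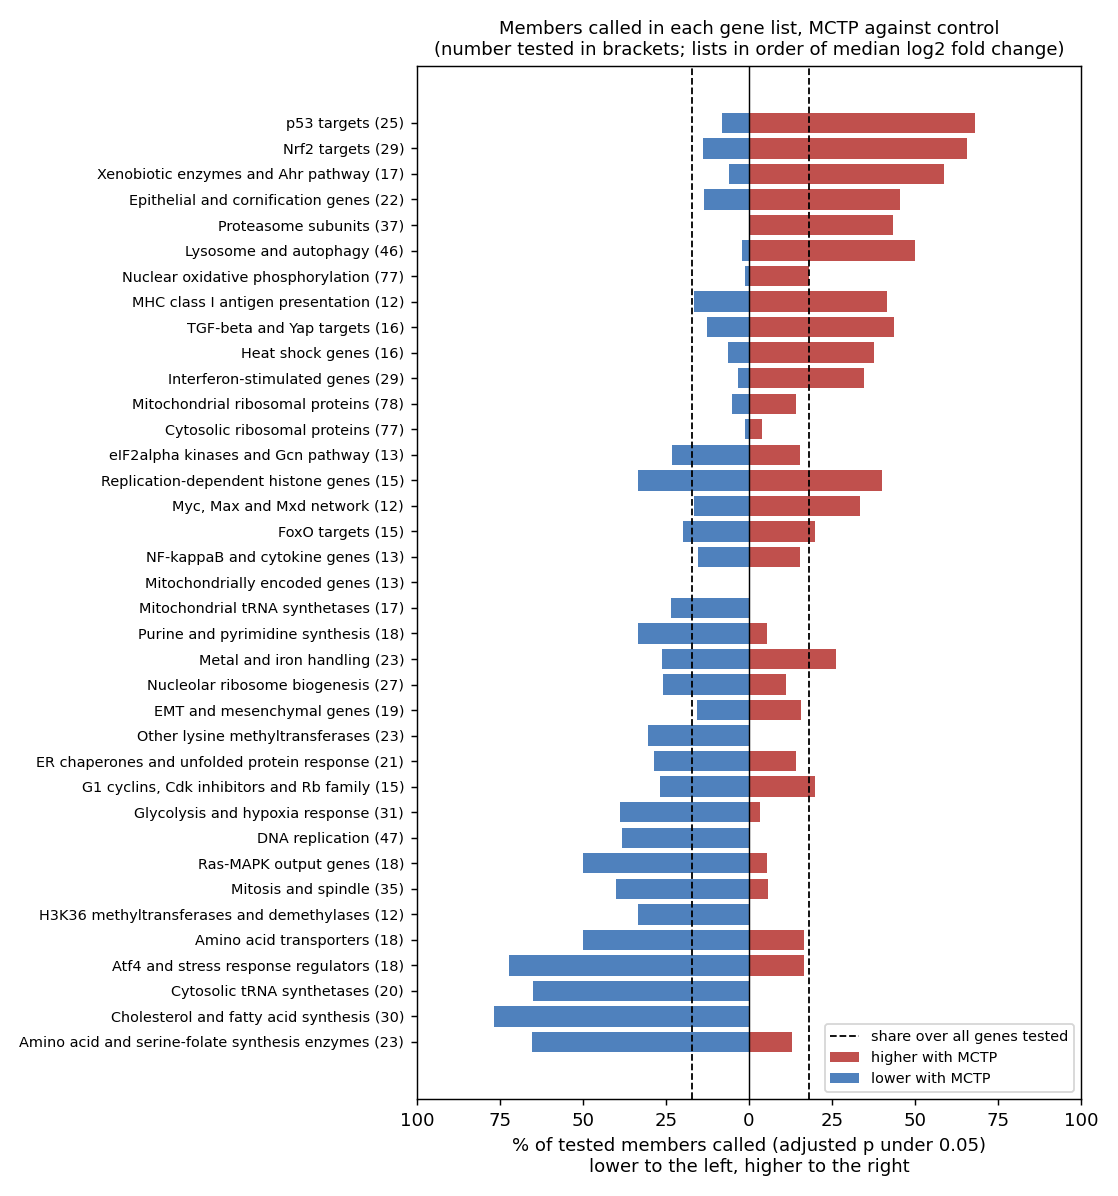
Share of each list's tested members called higher (right, red) and lower (left, blue) with MCTP, in percent, with the number tested in brackets; dashed lines mark the shares over all genes tested, 18.0% and 17.2%. The cholesterol and fatty acid, Atf4, amino acid enzyme and cytosolic tRNA synthetase lists extend furthest to the left. Furthest to the right are p53 targets (17 of 25) and Nrf2 targets (19 of 29).

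The mRNA of Nsd2 itself, listed as Whsc1, stood at 12.48, 12.43 and 12.42 in the control libraries and 12.15, 12.21 and 12.07 in the MCTP libraries on the log2 scale. The groups do not overlap, and the difference of -0.30 (adjusted p = 0.00562) shrank to -0.11 and no longer passed after the GC trend was removed. Nsd1, which encodes a methyltransferase of the same family, read 12.08, 11.88 and 11.95 in the control libraries and 11.45, 11.70 and 11.30 in the MCTP libraries. Nsd1 fell by 0.49 (adjusted p = 0.00968), with every MCTP library under every control library. Nsd3, listed as Whsc1l1, differed by -0.20 and did not pass (adjusted p = 0.119); without MCTP library 2 it passed, at -0.29. Of 12 tested genes for writers and erasers of H3K36 methylation, 4 were called lower and 0 higher (6 and 0 at an unadjusted p under 0.05); without MCTP library 2 the counts were 6 lower and 1 higher, and without any other single library 2 were lower. Of 23 other lysine methyltransferase genes, 7 were called lower and 0 higher (1 higher at an unadjusted p under 0.05). The count lower was 2 without control library 1 or MCTP library 1 or 3, and 3 without control library 2 or 3. Without MCTP library 2, 11 were lower and 1 higher. After the GC correction 13 were lower and 0 higher.

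Among regulators of the amino acid response, Atf4 mRNA stood at 13.99, 14.16 and 14.28 in the control libraries and 13.50, 13.40 and 13.50 in the MCTP libraries on the log2 scale. Control library 1 is the lowest of its group, yet all 3 MCTP libraries lie under it, and Atf4 fell by 0.68 (adjusted p = 9.54e-04 from limma). Trib3, a pseudokinase induced by Atf4 that restrains it in turn, read 11.20, 11.71 and 11.94 in the control libraries and 10.19, 9.99 and 10.37 in the MCTP libraries. That is the steepest fall on its list, -1.43 (SE 0.18, adjusted p = 0.00132), again with control 1 nearest to the treated libraries. Chac1, an enzyme that degrades glutathione and is a classic Atf4 target, read 9.87, 10.05 and 10.30 in the control libraries and 8.79, 8.65 and 8.91 in the MCTP libraries, a difference of -1.29 (adjusted p = 2.91e-04) with no overlap. The lipoprotein receptor gene Vldlr fell by 1.21 (adjusted p = 9.53e-05), and Cebpg, which encodes a dimer partner of Atf4, fell by 0.56 (adjusted p = 0.00101). In all, 13 of 18 members were called lower and 3 higher, with a median log2 difference of -0.39 against -0.0062 over all genes. The 3 that rose, named after their values were seen, are Atf3 (0.53), Gdf15 (0.50) and Sesn2 (0.26), which p53 is also known to induce; their number was 1 without control library 1 and 0 without MCTP library 1. The list's mean level per library, as a difference from the control mean, was -0.18, 0.031 and 0.15 in the controls and -0.39, -0.46 and -0.32 with MCTP. Upstream of Atf4, Eif2ak4, the kinase Gcn2 that senses uncharged tRNA, fell by 0.39 (adjusted p = 0.00229), and Ppp1r15b, a subunit of the eIF2alpha phosphatase, fell by 0.36 (adjusted p = 0.002). Of 13 genes for eIF2alpha kinases and partners, 2 were called higher and 3 lower; the number higher was 0 without control library 1, 2 or 3 or MCTP library 1 or 3 and 5 without MCTP library 2.

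Most enzymes that make amino acids and serine-derived folate units were lower. Gpt2 (ENSMUSG00000031700.5, chr8:85492576-85527560, + strand in GRCm38), the mitochondrial enzyme that makes alanine from pyruvate, read 11.14, 11.48 and 11.56 in the control libraries and 9.95, 9.76 and 9.98 in the MCTP libraries. Every treated library is more than 1 log2 unit under every control library, and Gpt2 differed by -1.50 (SE 0.12, adjusted p = 1.56e-04). Asns, asparagine synthetase, read 13.30, 13.68 and 13.73 in the control libraries and 12.34, 12.15 and 12.37 in the MCTP libraries, a difference of -1.29 (adjusted p = 3.29e-04). Mthfd2, a mitochondrial enzyme of folate-bound one-carbon metabolism, read 12.70, 13.00 and 13.04 in the control libraries and 11.70, 11.58 and 11.66 in the MCTP libraries, a difference of -1.27 (adjusted p = 1.22e-04). For both, control library 1 is again the lowest control and MCTP library 2 the lowest of all 6, and the groups are well apart. Aldh1l2, a further mitochondrial folate enzyme, fell by 1.19, Cth, which makes cysteine from cystathionine, fell by 1.14, and the branched-chain aminotransferase Bcat1 fell by 0.94, with adjusted p values from 2.39e-04 to 7.22e-04. Of 23 members, 15 were called lower and 3 higher, with a median of -0.56; the number higher was 1 without control library 1, 2 or 3 or MCTP library 1 or 3. Among those that rose, named after their values were seen, are Cbs (0.13), close to the floor, and Glul (0.23). With 1 library left out, Glul was called only without MCTP library 2. Among related enzymes that are not on this list, Pck2, mitochondrial phosphoenolpyruvate carboxykinase, fell by 1.19 (adjusted p = 5.59e-04). Ass1, which makes argininosuccinate, read 10.10, 10.14 and 10.24 in the control libraries and 11.17, 10.97 and 11.44 in the MCTP libraries and rose by 1.03 (adjusted p = 7.08e-04). The mean level of the listed enzymes was -0.49, -0.62 and -0.47 from the control mean in MCTP 1, 2 and 3, and -0.13, 0.054 and 0.077 in the controls.

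Amino acid importers that passed the test were mostly lower. Slc7a11, the cystine carrier of the cystine-glutamate exchanger, read 11.26, 11.26 and 11.28 in the control libraries and 9.88, 10.40 and 9.83 in the MCTP libraries, a difference of -1.23 (adjusted p = 7.84e-04). Slc7a5, the carrier for large neutral amino acids, fell by 1.14, the glycine transporter Slc6a9 fell by 0.93, the glutamine and neutral amino acid carrier Slc1a5 fell by 0.91 and the cationic amino acid carrier Slc7a1 fell by 0.64, with adjusted p values from 1.44e-04 to 7.86e-04. Slc43a2, a facilitated carrier of neutral amino acids, rose by 0.65 (adjusted p = 1.30e-04) from a low level, 6.69, 6.66 and 6.71 in the controls to 7.29, 7.32 and 7.39 with MCTP. Over the 18 amino acid transporters tested, 9 were lower and 3 higher, with a median of -0.22.

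Enzymes that charge tRNA were counted by compartment. Lars, the cytosolic leucyl-tRNA synthetase, read 12.98, 13.14 and 13.13 in the control libraries and 12.26, 12.25 and 12.19 in the MCTP libraries, and fell by 0.85 (adjusted p = 1.02e-04). Nars, Tars, Cars, Iars and Eprs, which charge tRNAs for asparagine, threonine, cysteine, isoleucine, and glutamate with proline, changed by -0.79, -0.74, -0.67, -0.66 and -0.66. Vars, the valyl enzyme, was not called (-0.17, adjusted p = 0.148). Altogether 13 of 20 cytosolic synthetases were lower and 0 higher (1 at an unadjusted p under 0.05 and 2 without MCTP library 2), with a median of -0.44. Of 17 mitochondrial synthetases, 4 were lower and 0 higher (2 at an unadjusted p under 0.05 and 3 without MCTP library 2), and the number lower was 2 without control library 1 or 3 or MCTP library 1 and 1 without control library 2. Their median was -0.0082, but 0.0001 and -0.0054 without control library 2 or 3 and 0.03 without MCTP library 2, so it has no settled sign. The difference between the lists was not tested. Among endoplasmic reticulum chaperones and genes of the unfolded protein response, the degradation factor Herpud1 fell by 0.61 (adjusted p = 0.0021) and the stress sensor Atf6 fell by 0.49 (adjusted p = 0.00269). The ubiquitin ligase Syvn1 rose by 0.41 (adjusted p = 0.00475). Of the 21 genes on that list 6 were lower and 3 higher; the number lower was 3 without control library 2 or 3 and 2 without MCTP library 1, and the number higher was 1 without control library 1, 2 or 3 or MCTP library 1 or 3. The reticulum oxidase Ero1l, which is not on the list, fell by 1.16 (adjusted p = 6.85e-05).

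**Figure D2:**
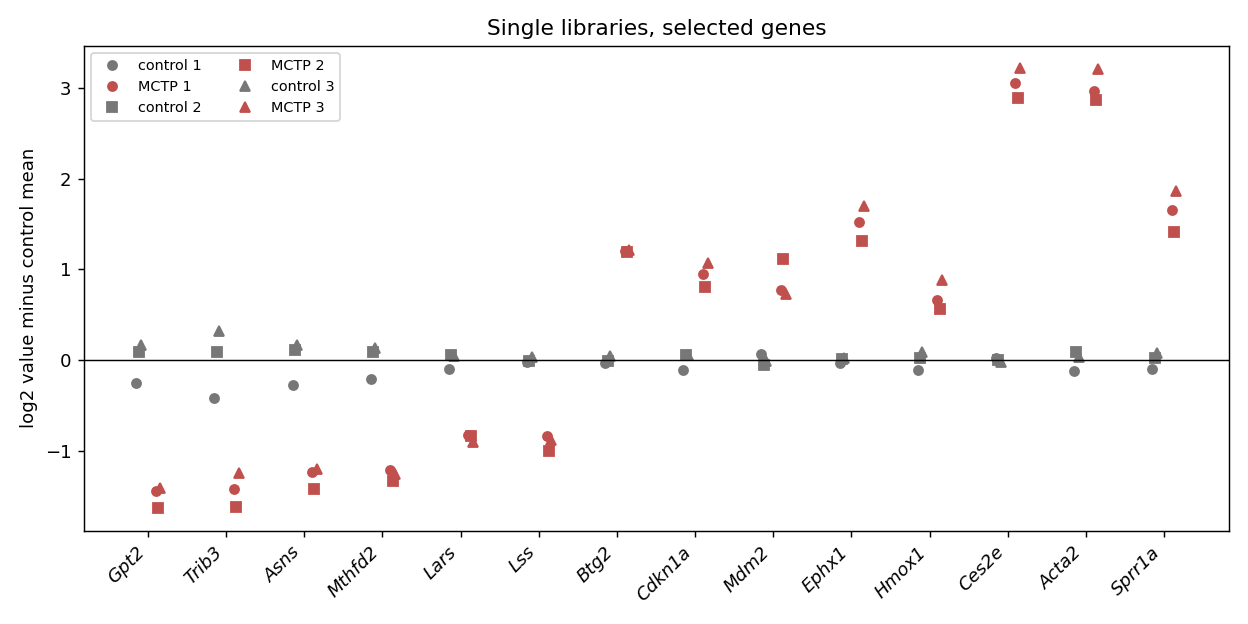
Difference of each library's log2 value from the control mean for 14 genes, with controls in grey, MCTP libraries in red and the shape giving the library number. The 6 genes on the left, with Gpt2 (-1.50) first and Lss (-0.91) last, lie under all controls in every MCTP library. The 8 on the right, with Btg2 (1.20) first and Sprr1a (1.64) last, lie above. Genes are not sorted by the size of the change.

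The letters TGATGNAA, the core of the composite C/EBP-ATF element through which Atf4 is known to act, were searched on both strands in the 250 bases before each RefSeq gene start (GRCm38.p6), since so many members of these lists moved together. They occur in 1134 of 32851 promoters (3.45%), or 1056 of 27025 genes (3.91%). Of the 79 tested members of the Atf4, amino acid and cytosolic tRNA synthetase lists, 61 had a promoter and 14 of them hold the letters: 12 of 40 with a promoter among the 50 that fell, and 2 of 8 among the 9 that rose. A match describes the letters only; it shows neither a site nor a cause. The sequences printed are from genes that hold the letters and fell, and capitals mark the letters found on either strand. They are Chac1 (chr2:119350992-119351116, plus strand), Asns (chr6:7693214-7693243, minus strand), Slc7a11 (chr3:50443615-50443739, minus strand), with the letters at 2 places, Vldlr (chr19:27216809-27216838, plus strand) and Tars (chr15:11399666-11399733, minus strand), each written on its gene's strand; for Asns and Vldlr the stretch overlaps an annotated exon.
Chac1: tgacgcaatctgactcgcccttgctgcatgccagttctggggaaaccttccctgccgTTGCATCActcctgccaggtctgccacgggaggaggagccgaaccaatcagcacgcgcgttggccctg
Asns: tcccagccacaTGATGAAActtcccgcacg
Slc7a11: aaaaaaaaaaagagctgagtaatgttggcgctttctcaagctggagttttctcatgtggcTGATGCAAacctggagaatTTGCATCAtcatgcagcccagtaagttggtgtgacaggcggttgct
Vldlr: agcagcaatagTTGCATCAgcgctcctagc
Tars: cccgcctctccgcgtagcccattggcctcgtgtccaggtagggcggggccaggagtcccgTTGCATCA
Chac1, Asns, Slc7a11, Vldlr and Tars changed by -1.29, -1.29, -1.23, -1.21 and -0.74. The letters do not stand before Gpt2, Trib3, Mthfd2 or Bcat1, which are also among the 15 largest falls. They stand before Pck2 and Idi1, which fell, and before Ecm1, the gene for an extracellular matrix protein, which rose by 1.11.

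Most genes for cholesterol and fatty acid synthesis were lower. Lss, lanosterol synthase, read 12.32, 12.32 and 12.36 in the control libraries and 11.50, 11.34 and 11.45 in the MCTP libraries, with narrow groups that do not overlap. Its difference was -0.91 (SE 0.056, adjusted p = 6.83e-05). Idi1, which interconverts the isoprene units, fell by 0.94 (adjusted p = 0.00943), with more spread: 11.96, 11.49 and 11.37 in the control libraries and 10.57, 11.04 and 10.39 in the MCTP libraries. The fatty acid elongase Elovl6 fell by 0.77, the cholesterol carrier Stard4 fell by 0.73, and the demethylation enzymes Cyp51 and Sc4mol changed by -0.72 and -0.72. Of 30 tested genes for cholesterol and fatty acid synthesis, 23 were lower and 0 higher (1 at an unadjusted p under 0.05 and 3 without MCTP library 2), with a median of -0.46. Fasn, fatty acid synthase, was not called (-0.11, adjusted p = 0.274). The list's mean level was -0.37, -0.46 and -0.42 from the control mean in MCTP 1, 2 and 3. Among genes of glycolysis and the hypoxia response, Hif1a, the oxygen-regulated transcription factor, fell by 0.74 (adjusted p = 0.0084), the aldolase Aldoc fell by 0.65 (adjusted p = 0.00176) and Ndrg1, a hypoxia-induced gene, fell by 0.62 (adjusted p = 0.00692). Of 31 members, 12 were lower and 1 higher, with a median of -0.13; without MCTP library 2 the number higher was 5 and the median -0.044.

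Most targets of p53 rose. Btg2, an antiproliferative gene, read 9.99, 10.02 and 10.07 in the control libraries and 11.23, 11.21 and 11.23 in the MCTP libraries. The 3 treated libraries are nearly equal, and Btg2 rose by 1.20 (SE 0.048, adjusted p = 1.76e-05). Cdkn1a, the cyclin-dependent kinase inhibitor p21, read 12.38, 12.54 and 12.54 in the control libraries and 13.43, 13.29 and 13.56 in the MCTP libraries and rose by 0.94 (adjusted p = 2.37e-04). Mdm2, the ubiquitin ligase that p53 induces and that degrades it, read 11.50, 11.38 and 11.43 in the control libraries and 12.21, 12.55 and 12.16 in the MCTP libraries and rose by 0.87 (adjusted p = 9.29e-04), highest in MCTP library 2. Ccng1, cyclin G, rose by 0.90 (adjusted p = 0.00186) and Pmaip1, the apoptosis gene Noxa, by 0.77 (adjusted p = 0.00311). Of 25 genes on the list of p53 targets, 17 were higher and 2 lower, with a median of 0.54. The number lower was 1 without control library 1 or MCTP library 1. Mean level was 0.40, 0.49 and 0.41 above the control mean in MCTP 1, 2 and 3, each above all controls. The 25 include Trp53, the gene for p53 itself, which was not called (0.038, adjusted p = 0.702).

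Counts of cell cycle genes called depend on single libraries. Of 47 DNA replication genes 18 were called lower and 0 higher (0 higher at an unadjusted p under 0.05 and 2 without MCTP library 2), with a median of -0.13 (-0.074 without MCTP library 2); the number lower was 10, 7 and 9 without control library 1, 2 or 3, and 8, 21 and 14 without MCTP library 1, 2 or 3. Of 35 mitosis and spindle genes 14 were lower and 2 higher, with a median of -0.18; the number lower was 1, 0 and 11 without control library 1, 2 or 3, and 2, 22 and 2 without MCTP library 1, 2 or 3, and the number higher was 0 without control library 1, 2 or 3 or MCTP library 1, 4 without MCTP library 2 and 1 without MCTP library 3. The mean level of the mitosis list was 0.072, 0.0083 and -0.081 from the control mean in the controls and -0.19, -0.11 and -0.24 with MCTP, so control 3 lies near MCTP 2. Among single genes, Pcna, the sliding clamp of replication, fell by 0.34 (adjusted p = 0.00543), and E2f8, a repressor of E2F targets, fell by 0.47 (adjusted p = 0.00105). Ccne1, cyclin E, rose by 0.36 (adjusted p = 0.00361), while the kinase gene Cdk6 fell by 0.36 (adjusted p = 0.00343) and the kinase inhibitor Cdkn1b (p27) fell by 0.40 (adjusted p = 0.0109). Over the 15 cyclins, inhibitors and Rb family genes, 3 were higher and 4 lower; the number lower was 2 without control library 1 or 3 or MCTP library 1 and 7 without MCTP library 2. Mxd4, a Max partner that opposes Myc, read 8.98, 8.95 and 8.94 in the control libraries and 10.38, 10.18 and 10.49 in the MCTP libraries and rose by 1.39 (adjusted p = 5.70e-05). Txnip, which binds thioredoxin and limits glucose uptake, rose by 0.96 (adjusted p = 5.71e-05) and its relative Arrdc4 by 0.44 (adjusted p = 7.76e-04). Of 12 genes of the Myc, Max and Mxd network, 4 were higher and 2 lower, with a number lower of 1 without control library 2 or 3. Mxd4, Txnip and Arrdc4 are among those higher, and the lowest difference on the list was -0.44.

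Genes for histone proteins that are normally made during DNA replication went both ways: 6 of 15 were higher and 5 lower, with 3 without MCTP library 1 for the number higher. Hist1h1c, a linker histone gene, read 8.91, 8.99 and 8.90 in the control libraries and 10.14, 9.89 and 10.12 in the MCTP libraries and rose by 1.12 (adjusted p = 1.02e-04), and Hist1h2bc rose by 0.75 (adjusted p = 1.83e-04). Most histone mRNA of this kind has no poly-A tail, so these libraries hold its polyadenylated part. Of 18 purine and pyrimidine synthesis genes, 6 were lower and 1 higher (number higher 6 without MCTP library 2); Pfas, an enzyme of purine synthesis, fell by 0.25 (adjusted p = 0.00847). Of 15 FoxO targets and factors 3 were higher and 3 lower (number lower 1 without control library 2 or 3); the factor Foxo3 rose by 0.28 (adjusted p = 0.005).

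Most Nrf2 targets and most listed enzymes that process foreign compounds rose. Ephx1, microsomal epoxide hydrolase, read 11.08, 11.12 and 11.13 in the control libraries and 12.63, 12.43 and 12.81 in the MCTP libraries and rose by 1.51 (SE 0.091, adjusted p = 6.28e-05). MCTP library 2 is the lowest of the treated libraries for this gene and still more than 1 log2 unit above every control. Gsta4, a glutathione transferase, rose by 1.02 (adjusted p = 6.81e-05), the carbonyl reductase Cbr3 by 0.77 (adjusted p = 6.26e-04) and the efflux transporter Abcc4 by 0.63 (adjusted p = 1.07e-04). Hmox1, heme oxygenase, read 10.74, 10.87 and 10.93 in the control libraries and 11.51, 11.41 and 11.72 in the MCTP libraries and rose by 0.70 (adjusted p = 0.00134). Of 29 Nrf2 targets 19 were higher and 4 lower, with a median of 0.41; the cystine carrier Slc7a11, which Atf4 also controls, is among those lower, and the number lower was 2 without control library 1, 2 or 3 or MCTP library 1. The antioxidant letters TGACNNNGC, searched on both strands in the same way, stand in 3338 promoters (10.2%) and 11.5% of genes, and in 7 of the 24 Nrf2 targets with a promoter (29.2%), 4 of 16 that rose and 3 of 4 that fell; their part in the change was not tested.

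Ces2e (ENSMUSG00000031886.7, chr8:104926260-104934672, + strand), a carboxylesterase gene, read 6.46, 6.43 and 6.41 in the control libraries and 9.49, 9.32 and 9.66 in the MCTP libraries on the log2 scale. It rose from a low level to a middling one, by 3.05 (SE 0.085, adjusted p = 7.18e-06). Its neighbour in the family Ces2g read 10.19, 10.13 and 10.21 in the control libraries and 11.51, 11.46 and 11.64 in the MCTP libraries and rose by 1.36 (adjusted p = 2.23e-05); the genes are alike in sequence, and whether reads were shared between them was not tested. The aldehyde dehydrogenase Aldh3a1 rose by 1.13 (adjusted p = 3.24e-04), the glutathione transferase Gstm2 by 0.86 (adjusted p = 2.07e-04) and the glucuronosyltransferase Ugt1a6a by 0.70 (adjusted p = 8.71e-05). Over this list 10 of 17 were higher and 1 lower (2 without MCTP library 2), with a median of 0.32, and mean levels of 0.60, 0.54 and 0.64 above the control mean in MCTP 1, 2 and 3. Iron handling moved in both directions: 6 of 23 metal and iron genes were higher and 6 lower. The ferritin genes Ftl1 and Fth1, which store iron, rose by 0.61 (adjusted p = 0.00745) and 0.49 (adjusted p = 0.00897). The ferroxidase ceruloplasmin, Cp, fell by 0.76 (adjusted p = 6.30e-04), and Fbxl5, the iron-sensing ligase subunit, fell by 0.57 (adjusted p = 0.00138). Among heat shock genes, the small heat shock protein gene Hspb1 rose by 1.07 (adjusted p = 4.90e-04), the inducible chaperone gene Hspa1b by 0.61 (adjusted p = 3.75e-04) and its cochaperone Bag3 by 0.37 (adjusted p = 0.00489); 6 of 16 were higher and 1 lower, the number lower being 0 without control library 2 or MCTP library 1 and 3 without MCTP library 2.

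**Figure D3:**
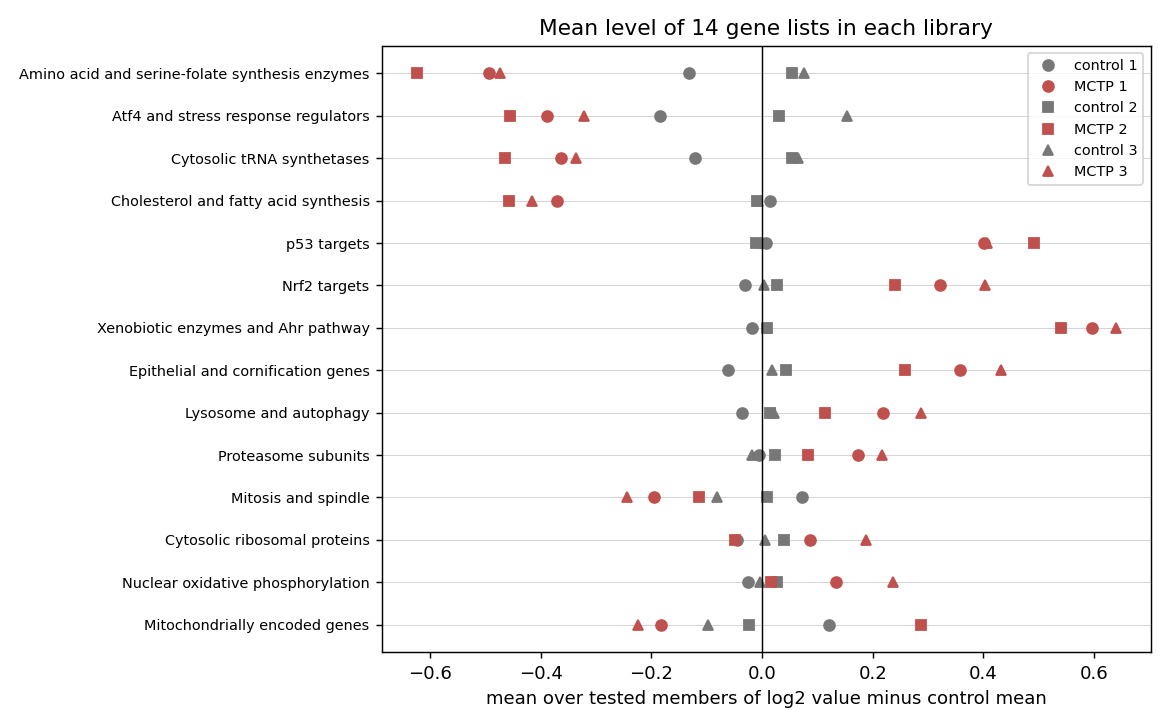
Mean over tested members of the log2 value minus the control mean, for 14 lists in each of the 6 libraries; controls are grey, MCTP libraries red, and shapes give the library number. For amino acid enzymes (-0.49, -0.62 and -0.47 in MCTP 1, 2 and 3) and p53 targets (0.40, 0.49 and 0.41) all MCTP libraries lie apart from the controls, while for nuclear oxidative phosphorylation genes (0.13, 0.017 and 0.24) and mitochondrially encoded genes (-0.18, 0.29 and -0.22) MCTP 2 does not sit with MCTP 1 and 3.

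Counts of protein and organelle turnover genes called higher vary with the library left out. Of 46 lysosome and autophagy genes 23 were higher and 1 lower (0 without control library 1 or 2 or MCTP library 1 or 3 and 2 without MCTP library 2), with a median of 0.17; the number higher was 11, 12 and 12 without control library 1, 2 or 3, and 9, 31 and 15 without MCTP library 1, 2 or 3. Ctsd, the protease cathepsin D, rose by 0.74 (adjusted p = 0.00199), and Ctsa, cathepsin A, by 0.70 (adjusted p = 5.59e-04); Ctsa read 11.09, 11.11 and 11.12 in the control libraries and 11.80, 11.67 and 11.94 in the MCTP libraries. Both are higher in every MCTP library than in every control. Of 37 proteasome subunits 16 were higher and 0 lower (0 lower at an unadjusted p under 0.05 and 2 without MCTP library 2), with a median of 0.18; the number higher was 5, 8 and 6 without control library 1, 2 or 3, and 4, 26 and 10 without MCTP library 1, 2 or 3. The mean level of the subunits was 0.17, 0.084 and 0.22 above the control mean in MCTP 1, 2 and 3, lowest in MCTP 2.

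For mitochondria and ribosomes the counts vary with the library left out. Of 77 nuclear genes of oxidative phosphorylation 14 were higher and 1 lower (0 without control library 1, 2 or 3 or MCTP library 1 or 3 and 4 without MCTP library 2); the number higher was 1, 2 and 1 without control library 1, 2 or 3, and 1, 51 and 4 without MCTP library 1, 2 or 3. The list's mean level was 0.13, 0.017 and 0.24 from the control mean in MCTP 1, 2 and 3. Mitochondrial ribosomal proteins had 11 higher and 4 lower of 78; the number higher was 2, 3 and 2 without control library 1, 2 or 3, and 2, 39 and 5 without MCTP library 1, 2 or 3, and the number lower was 1 without control library 1 or MCTP library 1, 2 without control library 2 or 3 and 8 without MCTP library 2. Mrpl20, a protein of the large mitochondrial ribosomal subunit, rose by 0.53 (adjusted p = 0.00382). Cytosolic ribosomal proteins had 3 higher and 1 lower of 77 (number lower 0 without control library 1, 2 or 3 or MCTP library 1 and 3 without MCTP library 2), and 36 higher without MCTP library 2; the number higher was 1 without MCTP library 3 and 0 without any other single library. Of 13 genes encoded in mitochondrial DNA, limma called 0 higher and 0 lower (0 and 0 at an unadjusted p under 0.05), 7 lower without MCTP library 2, and 10 higher after the GC correction, so their direction is not settled by these libraries. Their mean level was -0.18, 0.29 and -0.22 from the control mean in MCTP 1, 2 and 3. Nucleolar genes for ribosome assembly had 3 higher and 7 lower of 27; the number lower was 3 without control library 1 or 3, 1 without control library 2, 2 without MCTP library 1 and 4 without MCTP library 3, and the number higher was 0 without control library 1 or MCTP library 1, 1 without control library 2 or 3 or MCTP library 3 and 6 without MCTP library 2. Whether base composition or the library accounts for these counts was not tested.

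Acta2 (ENSMUSG00000035783.8, chr19:34241090-34255590, - strand), which encodes smooth muscle actin, read 5.83, 6.03 and 5.98 in the control libraries and 8.91, 8.81 and 9.16 in the MCTP libraries. It was low in the controls and rose by 3.02 (SE 0.096, adjusted p = 7.18e-06) in all treated libraries alike. Tagln, a smooth muscle actin-binding protein gene, stayed low, 3.95, 3.95 and 3.93 in the controls and 4.35, 4.20 and 4.48 with MCTP, and rose by 0.40 (adjusted p = 0.00337). Hmga2, a chromatin protein of embryonic and mesenchymal cells, fell by 0.61 (adjusted p = 0.00125). Of 19 epithelial-mesenchymal transition genes 3 were higher and 3 lower, with a median of -0.066 (-0.10 without control library 1); the number lower was 6 without MCTP library 2. Of further genes on it that the study names in its mouse signature, Vim, the mesenchymal filament vimentin, was higher by 0.32 (adjusted p = 0.0266) and the repressor gene Zeb1 lower by 0.23 (adjusted p = 0.0407). With 1 library left out both were called only without MCTP library 2. The matrix gene Fn1 was not called (-0.095), nor were the signature genes Col4a1, Col4a2, Wnt5a, Mmp14, Itga5 and Twist2 (-0.10, -0.033, -0.13, 0.14, 0.042 and -0.066); without MCTP library 2, Wnt5a and Mmp14 passed, at -0.19 and 0.19. On a list of TGF-beta genes and targets of Yap, a mechanically controlled coactivator, 7 of 16 were higher and 2 lower; the number lower was 1 without control library 1, 2 or 3 or MCTP library 1 or 3 and 4 without MCTP library 2. Cyr61 rose by 0.95 (adjusted p = 1.16e-04), Ctgf by 0.91 (adjusted p = 5.70e-05) and Amotl2 by 0.59 (adjusted p = 2.71e-04). Ctgf, a secreted matrix-associated protein gene, read 10.68, 10.68 and 10.60 in the control libraries and 11.59, 11.50 and 11.59 in the MCTP libraries, with no overlap. Thbs1, thrombospondin, rose by 0.57 (adjusted p = 0.00265), while Inhba, an activin subunit, fell by 0.77 (adjusted p = 0.00356).

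Of 22 epithelial and cornification genes, 10 were higher and 3 lower, with a median of 0.23 (0.15 without MCTP library 3). After the GC correction 10 were higher and 5 lower, with a median of 0.13. The keratin genes Krt8 and Krt18 were not called, but Krt8 was called higher without MCTP library 2. Sprr1a, a precursor of the cornified envelope, read 9.74, 9.85 and 9.91 in the control libraries and 11.49, 11.24 and 11.70 in the MCTP libraries and rose by 1.64 (adjusted p = 9.31e-05). Its relative Sprr2h rose by 1.49 (adjusted p = 6.18e-05). Krt14, the keratin of basal epithelial cells, rose by 1.19 (adjusted p = 2.74e-04), Krt6a, a keratin of activated epithelium, by 0.98 (adjusted p = 6.30e-04), and the desmosome protein gene Dsp by 1.16 (adjusted p = 5.67e-05). Dsp read 8.23, 8.28 and 8.22 in the control libraries and 9.29, 9.43 and 9.48 in the MCTP libraries, again with the groups wide apart.

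Outputs of MAPK signalling were lower for 9 of 18 genes and higher for 1 (0 without control library 1 or MCTP library 1), with a median of -0.15; the number lower was 6, 5 and 5 without control library 1, 2 or 3, and 5, 9 and 6 without MCTP library 1, 2 or 3. Spry4, a feedback inhibitor of the pathway, read 10.10, 10.16 and 10.16 in the control libraries and 9.58, 9.53 and 9.55 in the MCTP libraries and fell by 0.59 (adjusted p = 2.37e-04). The Ets factor genes Etv4, Etv5 and Etv1, which the pathway induces, changed by -0.45, -0.35 and -0.48 (adjusted p = 0.00132, 0.00327 and 0.00151). Interferon-stimulated genes were higher for 10 of 29 and lower for 1 (3 lower without MCTP library 2), with a median of 0.10, among them Ifi27l1 (0.69, adjusted p = 8.56e-04), Ifi35 (0.55, adjusted p = 0.00318) and Irf7, a signature gene of the study (0.26, adjusted p = 0.0128). Tap1, the peptide pump of antigen presentation, read 7.48, 7.35 and 7.37 in the control libraries and 8.48, 8.38 and 8.50 in the MCTP libraries and rose by 1.05 (adjusted p = 5.70e-05); the immunoproteasome subunit Psmb8 rose by 0.61 (adjusted p = 4.88e-04). The class I list had 5 of 12 higher and 2 lower (number lower 1 without control library 2 or 3 or MCTP library 1). Of 13 NF-kappaB and cytokine genes 2 were higher and 2 lower (number lower 1 without control library 2 or 3). Ptgs2, the inducible cyclooxygenase, rose by 1.10 (adjusted p = 9.43e-04), the adhesion gene Icam1 rose by 0.45 (adjusted p = 0.0021) and the cytokine gene Il33 fell by 0.33 (adjusted p = 0.00318).

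Other large changes are of genes on none of these lists. Ptp4a3, a phosphatase linked to metastasis, read 9.64, 9.73 and 9.68 in the control libraries and 11.23, 11.00 and 11.33 in the MCTP libraries and rose by 1.50 (adjusted p = 5.67e-05). Timp3, a matrix-bound inhibitor of metalloproteinases, read 10.51, 10.58 and 10.51 in the control libraries and 11.80, 11.90 and 11.84 in the MCTP libraries and rose by 1.31 (adjusted p = 1.76e-05). The groups do not overlap for either gene, which the rule for naming these genes required. Ak1, adenylate kinase, rose by 1.23 (adjusted p = 7.74e-05), Glipr1, a gene related to plant pathogenesis proteins, by 1.23 (adjusted p = 1.76e-05), the kinase gene Cdc42bpg by 1.17 (adjusted p = 1.76e-05) and the phosphomannomutase gene Pmm1 by 1.06 (adjusted p = 3.83e-04). Spp1, the secreted phosphoprotein osteopontin, is among the abundant mRNAs here and fell by 1.05 (adjusted p = 7.86e-04); it read 15.22, 15.03 and 14.97 in the control libraries and 14.00, 14.26 and 13.82 in the MCTP libraries. Slc4a7, a sodium bicarbonate cotransporter, fell by 1.13 (adjusted p = 0.00162), the glycosyltransferase gene Gcnt4 fell by 0.94 (adjusted p = 7.84e-04) and the carboxypeptidase gene Cpd fell by 0.94 (adjusted p = 7.07e-04).

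Cell type markers can be read only in part, since many have no values here. Of 8 prostate luminal markers 6 were tested: the keratins Krt8 and Krt18 read 16.21, 16.35 and 16.28 and 15.25, 15.47 and 15.44 in the controls and 16.57, 16.34 and 16.70 and 15.40, 15.21 and 15.52 with MCTP. Tmprss2, a membrane-bound serine protease gene, rose by 0.31 (adjusted p = 0.00493), and Fkbp5, a gene for a cochaperone of steroid receptors, fell by 0.28 (adjusted p = 0.00515). The basal factor Trp63 was low in both groups (4.94, 4.81 and 4.85, then 4.88, 4.95 and 4.86), although Krt14 rose. Among neuroendocrine markers Ncam1 read 10.81, 10.81 and 10.87 in the control libraries and 10.89, 10.94 and 10.81 in the MCTP libraries, and Syp, synaptophysin, read 4.16, 4.13 and 4.15 in the controls and 4.07, 4.13 and 4.14 with MCTP. Of 9 leukocyte markers only Cd68, a lysosomal membrane protein gene also expressed outside leukocytes, was analysed here; it rose by 0.73 (adjusted p = 6.88e-04). Of 5 endothelial and 5 lung epithelial markers 1 each had values, under the floor, and erythroid markers were not analysed here, so the level of these cell types was not read. Among fibroblast markers, Col1a1 fell by 0.33 (adjusted p = 0.0105) and Pdgfra read 3.97, 4.01 and 3.99 in the control libraries and 4.04, 4.06 and 4.03 in the MCTP libraries. In bulk RNA, fewer cells of a type and less RNA per cell cannot be told apart.

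MCTP and shNsd2 libraries were compared directly, without the controls, to find where the 2 groups differ. Only the shNsd2 titles name an shRNA, and no library with a control shRNA was used here. An effect of shRNA delivery therefore cannot be told apart from that of silencing or treatment. In MCTP cells 22.6% of genes were higher and 20.6% lower, 5276 in all. The calls numbered 3391, 3429 and 3420 without MCTP library 1, shNsd2 library 2 or shNsd2 library 3. Nsd2 mRNA (Whsc1) read 11.55, 11.61 and 11.68 in the shNsd2 libraries and was higher with MCTP by 0.53 (adjusted p = 4.24e-04). Amino acid and folate enzymes were lower with MCTP than with shNsd2 for 17 of 23 genes and higher for 1 (4 without MCTP library 2), Atf4 regulators for 16 and 1 of 18 (2 higher without MCTP library 2), and cytosolic tRNA synthetases for 15 and 0 of 20. Gpt2 read 11.62, 11.57 and 11.69 in shNsd2 cells and Trib3 12.09, 12.04 and 12.12; MCTP differed from these by -1.73 and -1.90. For Acta2, at 6.04, 6.18 and 6.01 in shNsd2 cells, MCTP was higher by 2.89 (adjusted p = 9.56e-06). Xenobiotic enzymes were higher with MCTP for 12 of 17 and lower for 0 (1 without MCTP library 2), and p53 targets for 16 and 4 of 25. Of 30 cholesterol and fatty acid synthesis genes, 16 were higher with MCTP than with shNsd2 and 0 lower. Without MCTP library 1, 9 were higher, and without MCTP library 2, 1 was lower. Cyp51 was higher by 0.31 (adjusted p = 0.00317 from limma). The mean level of this list was under that of the shared controls in both groups. It was -0.37, -0.46 and -0.42 with MCTP and -0.60, -0.63 and -0.63 with shNsd2. DNA replication genes were lower with MCTP than with shNsd2 for 37 of 47 and higher for 0 (2 without MCTP library 2). The mean level of that list, from the control mean, was -0.12, -0.18 and -0.13 with MCTP. With shNsd2 it was 0.14, 0.13 and 0.097, and in the controls 0.029, 0.010 and -0.039. This gap thus includes a higher level in the shNsd2 libraries. Lysosome and autophagy genes were higher with MCTP for 32 of 46 and lower for 0. For Ptgs2 the direct difference was 0.11 (adjusted p = 0.562) and for Idi1 0.10 (adjusted p = 0.64), and neither passed the test. Where a list has 0 genes in a direction, an unadjusted p under 0.05 from limma gave 0 synthetases higher and 0 xenobiotic enzymes lower. It also gave 0 cholesterol and fatty acid genes lower, 1 DNA replication gene higher and 1 lysosome gene lower.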

How the data were processed

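The deposited table gives log2 values per gene from the authors' pipeline, which names TopHat, Cufflinks, DESeq and DESeq2 on mm9. The labels name no transform. The study's methods report stabilized variance for counts of its sorted tumour and metastasis cells, and whether that holds for these values is not known. Variance-stabilized values compress differences at low levels, so differences are given in place of folds. Raw counts were not used here, and library depth cannot be read from these values. Of its 12 value columns, 3 were matched to no sample and left out. Genes were kept where at least 3 of the 6 libraries exceeded 3.78, the median of the lowest 10% of values. MCTP and control were compared with limma 3.58.1 (R 4.3.3, mean-variance trend, two-sided), and p-values were Benjamini-Hochberg adjusted over all genes tested with a threshold of 0.05; MCTP and shNsd2 were compared likewise. The method was checked on simulated data, and the outcome of that check is not reported here. Gene positions, lengths and GC content come from GENCODE M21 (GRCm38), joined by Ensembl identifier.

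Members and gene lists were chosen with earlier results of these data known, so lists carry no p-value. Genes named are the Nsd family, the 15 largest rises and falls among abundant genes whose groups do not overlap, up to 6 called and 3 uncalled members of each list, and genes the study names; exceptions are stated. Some items are not reported here. Alternatives were dropping the floor, one fit of all 9 libraries, a replicate block, quantile normalization, median centring, a GC correction, no trend, and leaving out each library.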

Additional observations from a re-analysis of the deposited data

How the results depend on the processing

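Besides Nsd2, given below, 125 named genes were called, and 117 kept their call under all alternatives run; Atf3, Cbs, Gdf15, Glul, Il33, Sesn2, Vim and Zeb1 lost it under some, and none changed direction. MCTP against control gave 4305 calls, and 3399 once replicate number entered as a block. After group means were removed, libraries with the same number correlated across genes by -0.186 on average and others by 0.143. The same-numbered values were -0.60, -0.57 and 0.61, and the highest value was 0.80, for control 1 with MCTP 2. With 3 libraries in each group, these values cannot show whether the numbers mark pairs. Median centring gave 4357 calls, of which 2807 were higher, and moved the median of all genes to 0.04.

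Leaving out 1 library gave 2046 to 7384 calls, 1123 to 3641 higher and 923 to 3743 lower, and 482 to 1196 by over 0.5; MCTP against shNsd2 gave 3391 to 7780. Leaving out control 1 and MCTP 2 together, chosen after seeing the data, gave 7575 calls, 3703 higher and 3872 lower. Under the same leave-one-out fits, DNA replication had 7 to 21 members lower, mitosis 0 to 22 and MAPK outputs 5 to 9; members higher numbered 9 to 31 for lysosome and autophagy, 4 to 26 for the proteasome (25 without control 1 and MCTP 2), 2 to 39 for mitochondrial ribosomal proteins and 1 to 51 for oxidative phosphorylation. Mitochondrial ribosomal proteins had 20 members higher with all 9 libraries, 7 with the block, 18 with median centring, 20 with the GC correction and 42 without control 1 and MCTP 2. Oxidative phosphorylation had 23, 22, 25 and 52 with all 9 libraries, median centring, the GC correction and both left out, and 22 with the GC correction and block. Interferon genes had 17 higher with both left out. Nsd2 (Whsc1) was -0.11 after the GC correction, with or without the block, and not called. The cause was not tested.

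Among genes not called, the sign changed for these. Col4a2 was 0.0009 with quantile normalization and 0.013 with median centring, and -0.058 to 0.010 with 1 library left out. Krt18 was 0.039 with median centring, 0.0070 without control 1 and MCTP 2, and -0.078 to 0.077 with 1 library left out. Itga5 was -0.062 with the GC correction, with or without the block; Trp53 was -0.034 there and -0.014 to 0.12 with 1 library left out. Trp63 was -0.019 with quantile normalization. Syp was 0.011 with median centring and 0.059 with the GC correction, with or without the block. The cause was not tested.

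Depth cannot be read from log2 values, so no limit of detection is given. Each group holds 3 libraries, MCTP 2 stands apart from MCTP 1 and 3, and the titles name different numbers after MCTP. For small changes, a library, a compound, base composition and transcript length therefore cannot be told apart.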
